A study of Mus musculus with 12 samples.

Results

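ATP-binding cassette (ABC) transporters were followed by their mRNA levels in mouse liver, as the genes whose symbol is Abc, a subfamily letter from a to g and a number, with a or b where a gene has a close copy. The rule found 39 genes among the 11791 in the deposited table and used no measured value. GENCODE vM21 lists 50 protein-coding genes with such symbols, and the other 11 (Abca4, Abca12 to Abca17, Abcb5, Abcc8, Abcc12 and Abcg4) were not analysed here.

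RNA came from the livers of males aged 10 weeks that had eaten MCD, chow without methionine and choline, for 3 weeks, known to produce fatty, inflamed livers. Each library was 1 pool of RNA from 2 animals, and 4 pools made up each of 3 groups. All 3 groups had Lyzs-Cre in common, in which the lysozyme 2 locus drives Cre in the myeloid lineage. The control group carried nothing further. The KO group also lacked p38γ and p38δ (Mapk12 and Mapk13), stress-activated kinases. The anti-Ly6G group was given an antibody to Ly6G, which marks neutrophils, and its titles read GR1. All pools have the strain label C57BL/6. A label for the origin of the mitochondria reads C57 for control and for KO pools 1 and 2, but NZB for anti-Ly6G and for KO pools 3 and 4, so this label and the antibody cannot be fully told apart against control. The labels speak of 12 males per genotype, more than 4 pools of 2 hold.

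Depth was 13.1 to 22.3 M reads per pool, and 3 reads correspond to 0.125 to 0.242 RPM. RPM here stands for reads scaled by a TMM-adjusted library size. Mapk12 was low, with 2.17 ± 0.397 RPM in control and 2.30 ± 0.694 in KO (SD, n = 4 pools), and whole liver does not test a deletion in myeloid cells. Hepatocyte markers summed to 103613 to 121799 RPM in control, 94981 to 120848 in KO and 96212 to 135857 in anti-Ly6G pools, as befits the liver label. Macrophage markers summed to 585 to 1038, 853 to 1031 and 334 to 496 RPM in the same order. In bulk tissue, fewer cells of a type and less RNA per cell cannot be told apart.

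ABC proteins bind and hydrolyse ATP to move lipids, bile salts, conjugates and drugs across membranes. In the hepatocyte, one set in the canalicular membrane fills the bile, and another in the basolateral membrane returns conjugates and bile acids to blood, which is best known for rising in cholestasis. Other members work in peroxisomes, mitochondria and lysosomes, and the E and F subfamilies lack membrane segments and act on ribosomes.

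Across the family, the antibody group differed from control and the kinase deletion hardly did. In anti-Ly6G against control, 9 members rose and 10 fell (limma, adjusted p below 0.05), against 15.1% and 15.3% of all genes tested, so the members' shares were 23.1% and 25.6%. In KO against control 1 member rose and 0 fell, against 0.585% and 0.534% of all genes, and 8 members had an unadjusted p below 0.05, among 18.9% of all genes. On the recovered reads, edgeR and DESeq2 each also had 1 member higher and 0 lower, against 0.645% and 0.653% of all genes with edgeR and 2.27% and 2.62% with DESeq2. In KO against anti-Ly6G, 9 members were higher in KO and 4 lower, against 13.6% and 13.1% of all genes. The median size of the log2 difference was 0.33 over the members and 0.21 over all genes in anti-Ly6G against control, and 0.13 over both in KO against control. In all, 21 members passed in at least 1 comparison and 18 in none. KO against control and anti-Ly6G against control share the control pools, and the 2 comparisons with anti-Ly6G share the antibody pools.

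**Figure D1:**
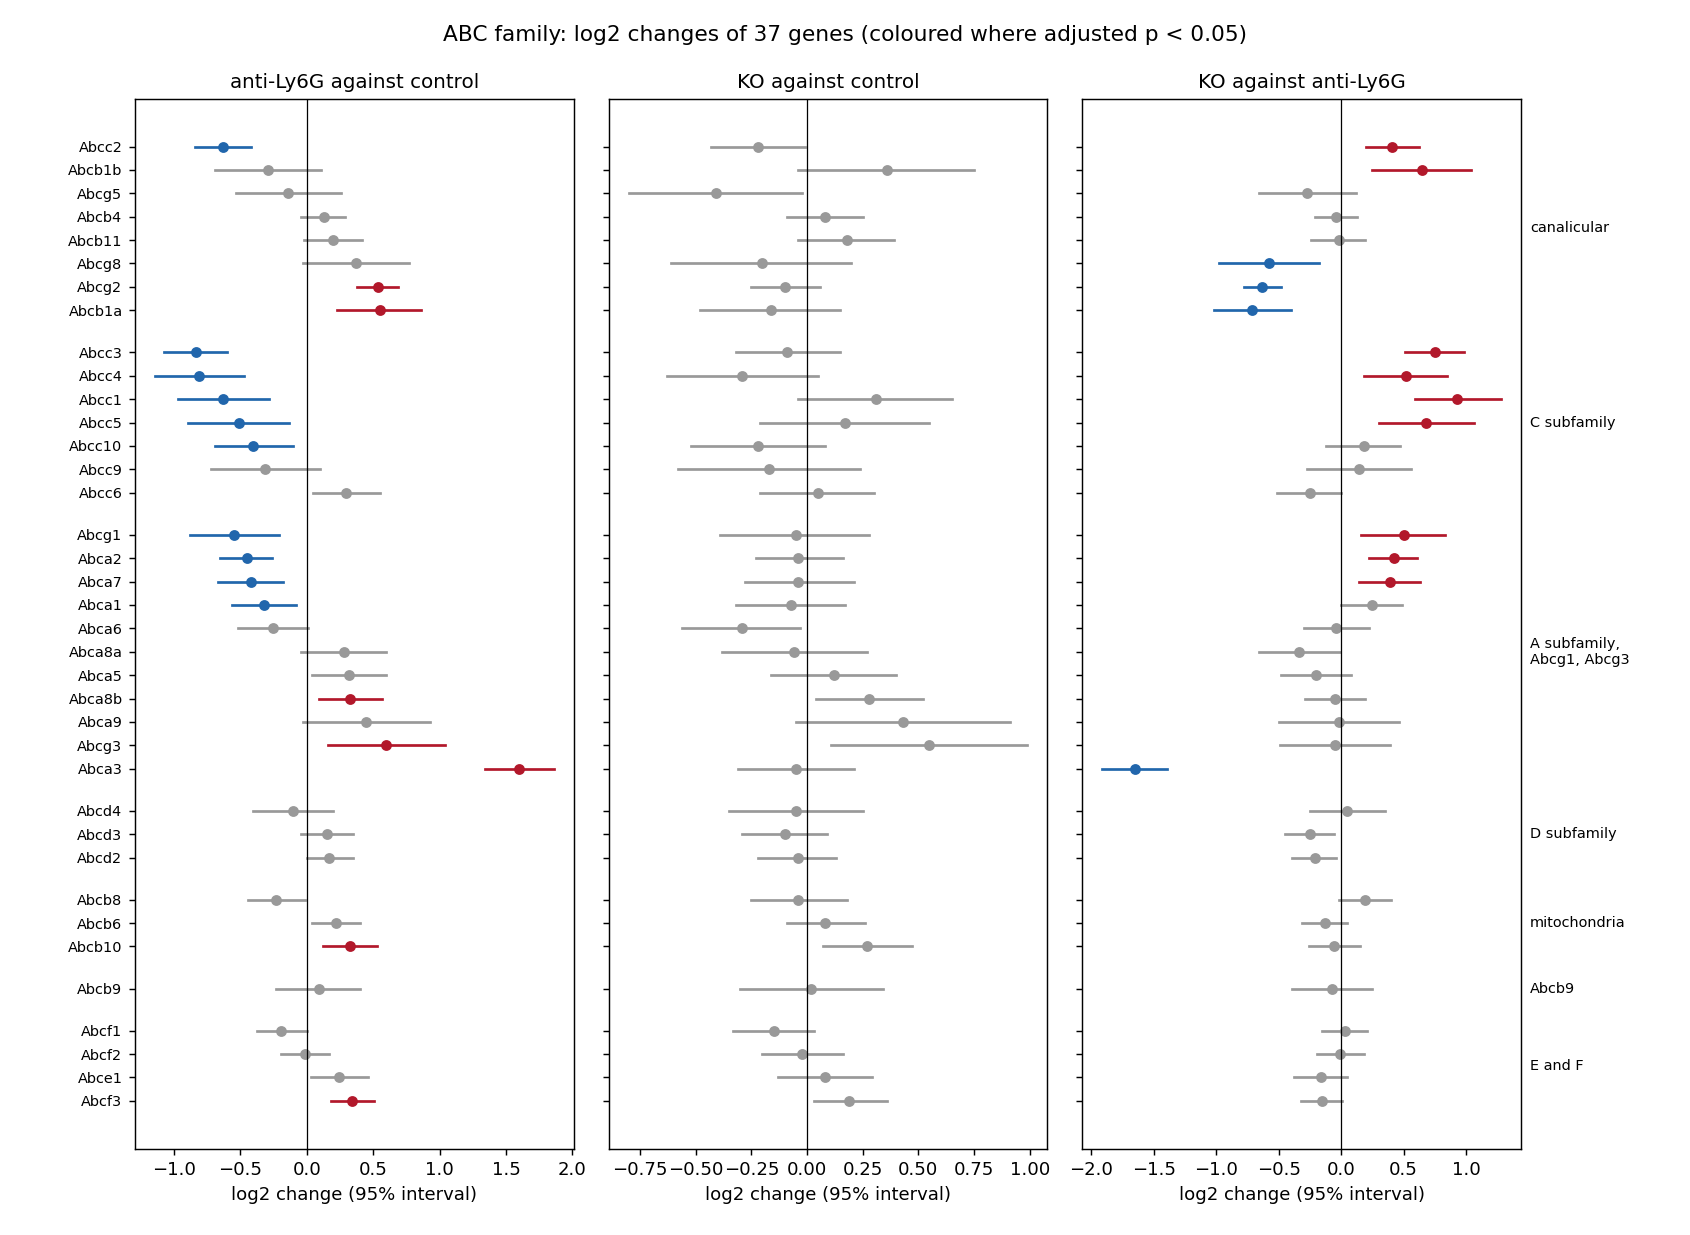
Log2 difference (points) with 95% interval from limma (lines) of 37 members, by role, in the 3 comparisons, with red for higher and blue for lower at an adjusted p below 0.05 and separate axis ranges. In anti-Ly6G against control 17 of them are coloured, from Abcc3 at -0.83 to Abca3 at 1.60, and in KO against control none is.

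Summed over the 39 members, the level was 3390 to 3445 RPM in control, 3063 to 3400 in KO and 3437 to 3495 in anti-Ly6G pools. The KO range met that of control and reached below it, and the antibody range met it and reached above. This sum weighs the high members most and was not tested. Within it, members both rose and fell in the antibody group. In that group, part of the markers of non-hepatocyte cells were also lower (limma), with 15.3% of all genes lower and 15.1% higher. Calls were lower for 7 of 11 macrophage genes, 5 of 10 stellate, 3 of 8 endothelial and 3 of 4 measured neutrophil genes, of 9 listed for neutrophils. Ly6g itself was listed but not measured. Both measured B cell genes, of 8 listed for T and B cells, and both measured bile duct genes, of 7 listed, also fell. No listed T cell gene was measured. Of these non-hepatocyte genes 0 rose, and 4 macrophage genes did not pass. Marco (-2.06) and Trem2 (-1.42) had the lowest p among macrophage genes. Of 9 hepatocyte markers 2 fell, Cps1 (-0.79, adjusted p = 0.00668) and Fah (-0.40, adjusted p = 0.0239). None of these marker genes passed in KO against control. Their part in the members' results was not tested.

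Per kilobase of annotated exon, the peroxisomal half-transporter Abcd3 had the highest control level of the family at 104 ± 8.91 RPM per kb, above every other member in every control pool. Abcd3 (PMP70) brings branched-chain fatty acids and bile acid precursors into peroxisomes. Abcb4, Abcc2, Abcc3, Abcg5, Abca6 and Abcb11 followed at 52.2 ± 2.37, 47.4 ± 3.34, 42.9 ± 6.15, 39.9 ± 5.10, 36.6 ± 2.06 and 34.9 ± 5.53 RPM per kb, and each of these overlapped the next over the control pools. Abcg8 came next at 26.8 ± 2.49 RPM per kb, with its highest control pool and the lowest of Abcb11 both at 29.9. At the other end were Abcc1 (0.488), Abca9 (0.374) and Abcb1b (0.225 ± 0.0442). Abca3 ranked 22 of 39 in control at 4.77 RPM per kb and reached 17.6 in its highest antibody pool.

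**Figure D2:**
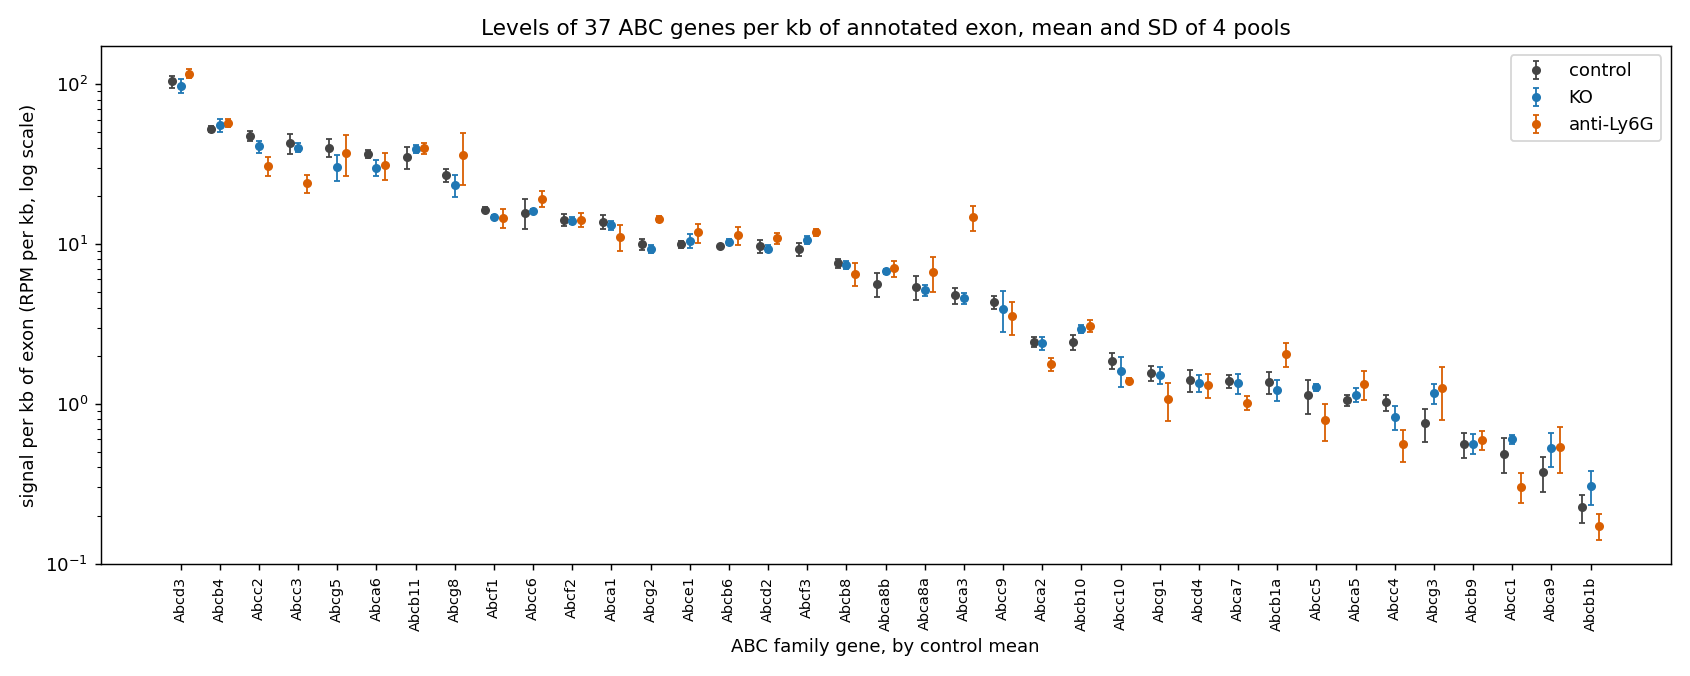
Level of 37 members per kilobase of annotated exon (RPM per kb, log axis), as mean and SD of the 4 pools of each group, ordered by the control mean. Abcd3 leads at 104 RPM per kb and Abcb1b is last at 0.225, and Abca3 (4.77 in control) is the member whose antibody mean lies farthest from its control and KO means.

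The promoters of 4 called members are shown here, 2 that rose (Abca3, Abcg2) and 2 that fell (Abcc2, Abcc4) in anti-Ly6G against control, with Abcc2 and Abcc4 chosen because they hold TGACNNNGC. Promoter windows run from 250 bases before to 50 after a RefSeq transcript start (GRCm38.p6), and 29 of the 39 members have one. They were searched on both strands for TGACNNNGC, the core of the antioxidant response element, and for AGGTCA, a half-site of nuclear receptors, and the motifs overlap one another in none of the windows shown, though they do in 1 of Abcc10. TGACNNNGC was in 12.4% of all 32851 promoters and AGGTCA in 16.3%, and each was in a promoter of 5 members. The percentages count promoters and the 5 counts genes, and the 29 members have 36 windows, so the 2 measures are unlike. TGACNNNGC matches lay in windows of Abcc2, Abcc4, Abcc10, Abcb1a and Abca8b, of which the first 3 fell and the other 2 rose in the antibody group. Those of Abcb1a and Abca8b begin 26 and 11 bases after the start, and 1 of Abcc10 also begins after it. The Abcb1a window (chr5:8566841-8567140) lies before the gene as annotated in GENCODE vM21. Capitals mark the matches, and a match is a description of letters only. The windows are chr17:24351773-24352072 (plus strand) for Abca3, chr6:58584283-58584582 (plus strand) for the first of 3 starts of Abcg2, chr19:43782058-43782357 (plus strand) for Abcc2 and chr14:118706170-118706469 (minus strand) for Abcc4. Each is written 5′ to 3′ on the strand of its gene.
Abca3: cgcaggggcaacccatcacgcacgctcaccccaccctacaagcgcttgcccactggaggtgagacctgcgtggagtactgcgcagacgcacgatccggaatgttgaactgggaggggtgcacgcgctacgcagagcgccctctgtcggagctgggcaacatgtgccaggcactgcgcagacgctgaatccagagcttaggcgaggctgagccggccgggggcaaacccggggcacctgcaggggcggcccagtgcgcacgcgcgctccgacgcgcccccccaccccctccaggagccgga
Abcg2: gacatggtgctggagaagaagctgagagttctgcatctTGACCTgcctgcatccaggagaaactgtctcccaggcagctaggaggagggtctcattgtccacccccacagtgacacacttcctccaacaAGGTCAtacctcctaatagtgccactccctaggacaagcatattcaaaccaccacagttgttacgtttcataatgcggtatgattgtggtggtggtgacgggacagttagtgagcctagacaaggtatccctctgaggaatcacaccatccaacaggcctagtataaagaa
Abcc2: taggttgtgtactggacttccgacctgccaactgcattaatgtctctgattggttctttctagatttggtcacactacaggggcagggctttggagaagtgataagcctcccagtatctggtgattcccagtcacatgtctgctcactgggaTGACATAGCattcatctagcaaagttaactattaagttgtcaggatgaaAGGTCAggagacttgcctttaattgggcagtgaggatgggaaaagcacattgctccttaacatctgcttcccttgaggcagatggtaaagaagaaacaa
Abcc4: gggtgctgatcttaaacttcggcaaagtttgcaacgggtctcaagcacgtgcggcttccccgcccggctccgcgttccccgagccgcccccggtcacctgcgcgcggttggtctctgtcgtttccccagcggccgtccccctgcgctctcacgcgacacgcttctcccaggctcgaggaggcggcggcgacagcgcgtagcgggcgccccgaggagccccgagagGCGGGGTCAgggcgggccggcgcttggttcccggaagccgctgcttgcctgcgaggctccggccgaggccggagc
The Abcc2 window has both motifs, TGACNNNGC beginning 98 bases and AGGTCA 49 bases before the start. The Abcc4 match begins 25 bases before the start and reads on the reverse strand. The Abcg2 window has 2 AGGTCA matches, 1 of them on the reverse strand, while the second start of Abcg2 has 0 and the third has 1. A second window of Abcc4 (chr14:118676882-118677181, minus strand) also has 1 TGACNNNGC match, 23 bases before its start. The window of Abca3, which is 69.7% G and C, has neither motif.

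Abca3 moved most of all members. It encodes the phospholipid transporter that loads surfactant into lamellar bodies of the lung and is expressed from chr17:24351950-24410201 (plus strand). Its levels were 41.0, 49.2, 49.2 and 39.3 RPM in control pools 1 to 4, 42.3, 45.7, 45.5 and 38.6 in KO pools and 118, 115, 152 and 165 in anti-Ly6G pools. Every antibody pool lay above every control and KO pool, and control and KO pools overlapped. The group means were 44.7 ± 5.27, 43.0 ± 3.34 and 138 ± 25.1 RPM, a log2 difference of 1.60 ± 0.12 (SE) in anti-Ly6G against control, 3.04-fold (limma, adjusted p = 1.74e-06). In KO against control it was -0.05 (95% interval -0.31 to 0.21, adjusted p = 0.855). Between pools with the same NZB label, KO 3 and 4 lay below anti-Ly6G by a log2 difference of -1.69 (limma, adjusted p = 9.50e-05). D330041H03Rik, an antisense gene that overlaps 914 exon bases of Abca3, was at 5.68 to 9.03 RPM in control and 14.5 to 23.0 in anti-Ly6G pools (log2 1.17 ± 0.18, limma, adjusted p = 0.000553). Use of strand in counting is not given in the sources used here, so reads in the overlap cannot be told apart, and 86.9% of Abca3's 25-mers are unique to it.

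**Figure D3:**
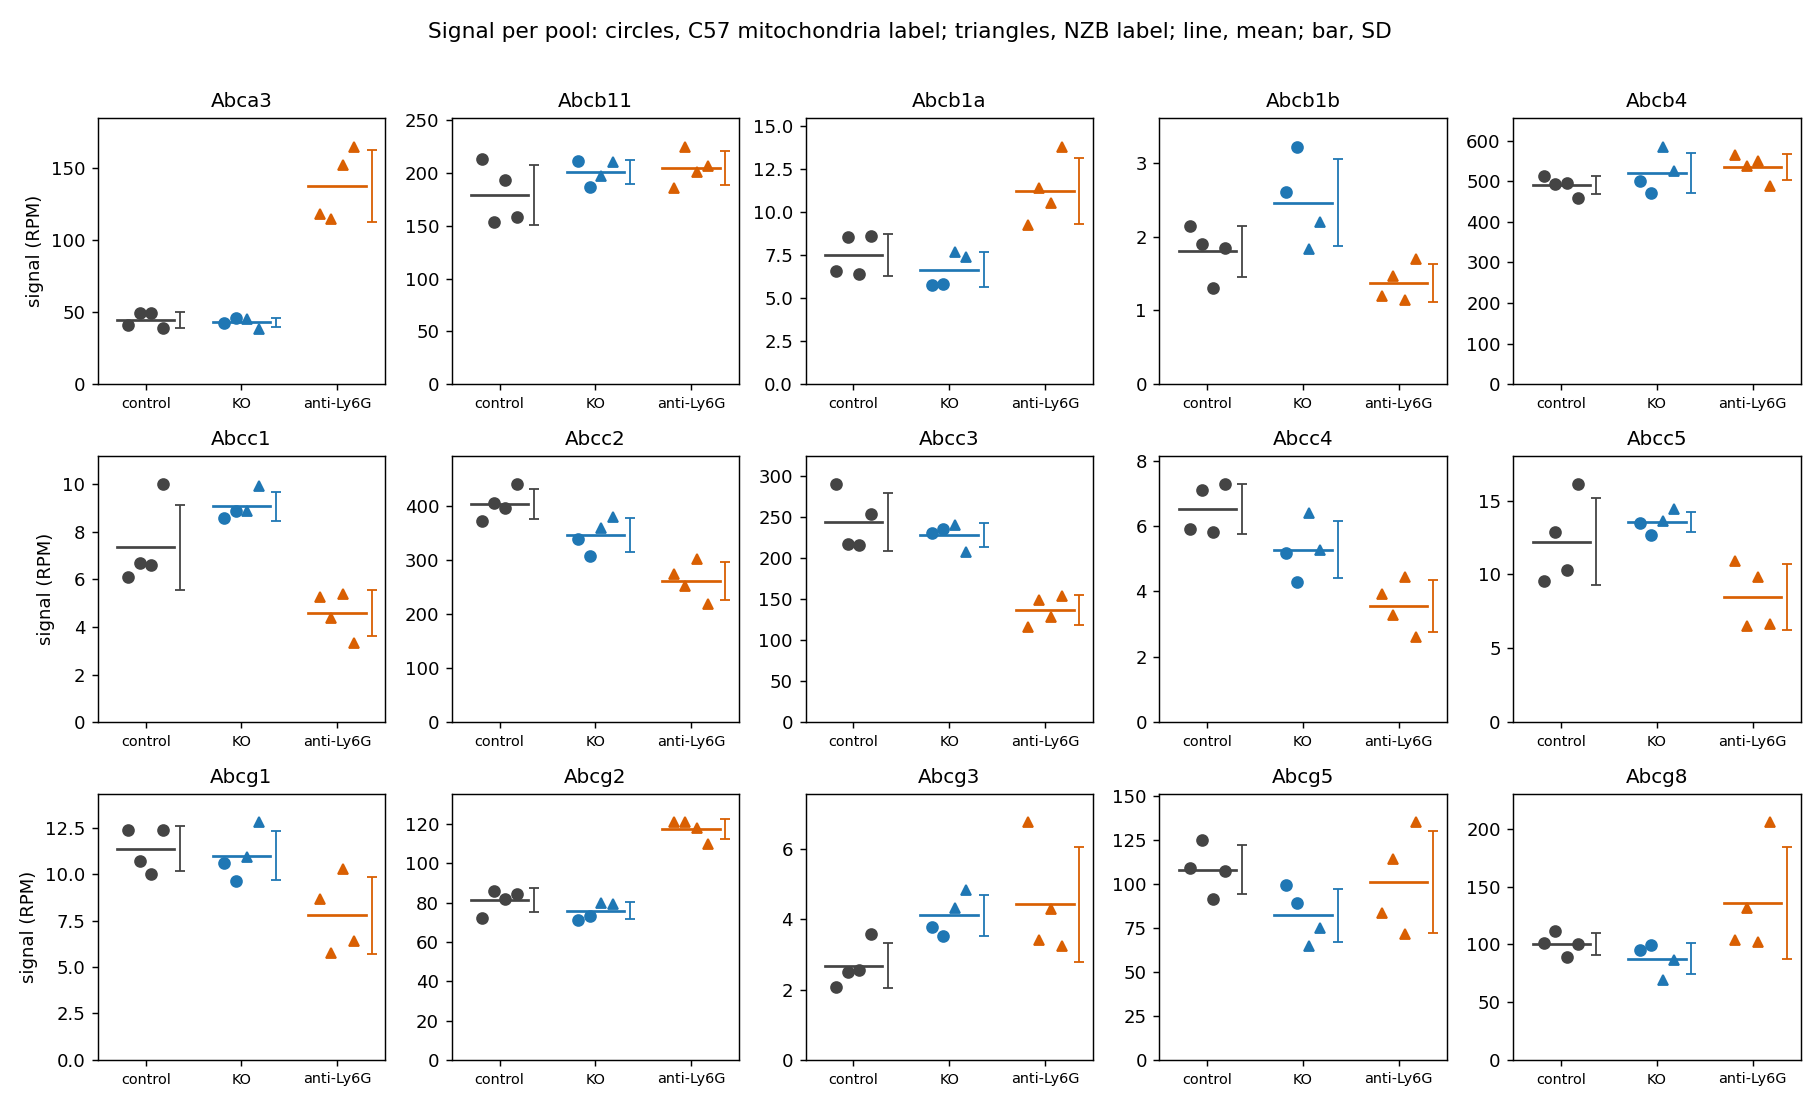
Levels (RPM, linear axes from 0) of the 15 members described pool by pool, in the 4 control, 4 KO and 4 anti-Ly6G pools, with lines at the group means and bars for the SD (circles, C57 mitochondria label; triangles, NZB). The antibody pools of Abca3 (115 to 165) and Abcg2 (110 to 121) lie above all others and those of Abcc2 (220 to 303) and Abcc3 (116 to 154) below all others.

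Among the 8 canalicular exporters, Abcg2 and Abcb1a rose, Abcc2 fell and 5 did not pass in anti-Ly6G against control (15.1% of all genes higher, 15.3% lower). Their median log2 difference was 0.16, with 0.00 over all genes. None passed in KO against control (median -0.13, with 0.00 over all genes). Abcg2, the breast cancer resistance protein, exports urate, porphyrins and drugs. It stood at 72.4, 86.0, 81.8 and 84.5 RPM in control, 71.2, 73.4, 79.8 and 79.1 in KO and 121, 121, 118 and 110 in anti-Ly6G pools, so the antibody pools were the 4 highest. The log2 difference was 0.54 ± 0.07 (SE) in anti-Ly6G against control (limma, adjusted p = 0.000161) and -0.10 in KO against control (adjusted p = 0.488). With the mitochondria label as a covariate the first was 0.40 and just missed the threshold (limma, adjusted p = 0.0504). Within the NZB label, KO 3 and 4 lay below anti-Ly6G by -0.56 (limma, adjusted p = 0.00232).

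Abcc2 (MRP2), which secretes bilirubin glucuronides and glutathione conjugates into bile, ran the other way. Its levels were 373, 406, 397 and 441 RPM in control, 339, 308, 361 and 380 in KO and 274, 252, 303 and 220 in anti-Ly6G pools. All antibody pools were below all others, and the KO pools reached into the control range only with pool 4. The log2 difference was -0.63 ± 0.10 (SE) in anti-Ly6G against control (limma, adjusted p = 0.000582) and -0.22 in KO against control (95% interval -0.43 to -0.01, adjusted p = 0.248). With the label as a covariate the antibody difference was -0.83 (limma, adjusted p = 0.0122), and KO 3 and 4 lay above anti-Ly6G by 0.51 (limma, adjusted p = 0.0149).

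Abcb11, the bile salt export pump, did not pass in any comparison. It had 213, 154, 193 and 158 RPM in control, 211, 187, 197 and 210 in KO and 186, 225, 201 and 207 in anti-Ly6G pools. The ranges overlapped throughout, with 2 control pools lowest. Its log2 difference had a 95% interval of -0.02 to 0.42 in anti-Ly6G against control (0.20, limma, adjusted p = 0.150) and of -0.04 to 0.39 in KO against control (0.18, limma, adjusted p = 0.369). Abcb4, which flops phosphatidylcholine into bile, had 512, 493, 496 and 459 RPM in control, 500, 470, 585 and 525 in KO and 564, 538, 549 and 489 in anti-Ly6G pools. These ranges also overlapped, and the intervals were -0.04 to 0.29 (0.13, limma, adjusted p = 0.240) and -0.09 to 0.25 (0.08, limma, adjusted p = 0.607).

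Abcg5 and Abcg8 form a heterodimer that secretes sterols into bile, and their genes lie on opposite strands of chromosome 17 with 82 shared exon bases. Abcg5 had 109, 125, 91.3 and 107 RPM in control, 99.2, 89.3, 64.7 and 75.0 in KO and 83.3, 114, 71.7 and 135 in anti-Ly6G pools. Abcg8 had 101, 112, 89.3 and 100 RPM in control, 95.5, 99.9, 69.2 and 86.6 in KO and 104, 132, 102 and 206 in anti-Ly6G pools. In both genes KO pool 3 was lowest and antibody pool 4 highest, and for Abcg8 all antibody pools lay above all KO pools. Neither passed against control: Abcg5 differed by -0.14 (95% interval -0.53 to 0.26, adjusted p = 0.601) and Abcg8 by 0.37 (-0.03 to 0.77, adjusted p = 0.146) in anti-Ly6G, and Abcg5 by -0.41 (-0.80 to -0.02, adjusted p = 0.247) in KO (limma). KO lay below anti-Ly6G for Abcg8 (-0.58, limma, adjusted p = 0.0355). This call was lost without KO 3 or 4 or without antibody pool 2 or 4, where the difference came down to -0.36. It was also lost with scaling to library totals and with the 2 groups alone.

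Abcb1a and Abcb1b encode the P-glycoproteins, drug efflux pumps that are a single gene in humans, and lie next to each other and to Abcb4 on chromosome 5 (chr5:8660077-8748575, chr5:8798147-8866315 and chr5:8893717-8959231, all plus strand). Their coding sequences (longest open reading frames, GENCODE vM21) are 88% identical, against 75.6% for Abcb1a and Abcb4. The stretch over the Walker A motif, which binds ATP, shows how close they are: coding bases 1252 to 1311 of Abcb1a and 1261 to 1320 of Abcb1b differ at 1 of 60 bases, in capitals here, 5′ to 3′ on the coding strand.
Abcb1a: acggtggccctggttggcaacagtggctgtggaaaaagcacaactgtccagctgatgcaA
Abcb1b: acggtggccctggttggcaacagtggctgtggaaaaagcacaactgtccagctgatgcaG
Of their 25-mers, 69.5% in Abcb1a and 80.1% in Abcb1b occur in no other gene, and how shared reads were assigned is not given, so the split between both is uncertain. Abcb1a had 6.55, 8.57, 6.41 and 8.59 RPM in control, 5.77, 5.80, 7.66 and 7.41 in KO and 9.23, 11.4, 10.5 and 13.8 in anti-Ly6G pools. Abcb1b was lower at 2.14, 1.90, 1.31 and 1.85 RPM in control, 2.60, 3.22, 1.83 and 2.20 in KO and 1.20, 1.47, 1.14 and 1.70 in anti-Ly6G pools. The antibody pools were highest for Abcb1a, and for Abcb1b all KO pools lay above all antibody pools, with control between and overlapping both. Abcb1a rose by 0.55 ± 0.14 (SE) in anti-Ly6G against control (limma, adjusted p = 0.0125), or 0.19 with the label as a covariate (adjusted p = 0.632). In KO against anti-Ly6G the neighbours differed in opposite directions, Abcb1a by -0.71 (limma, adjusted p = 0.00318) and Abcb1b by 0.65 (limma, adjusted p = 0.0201). Within the NZB label these were -0.53 (adjusted p = 0.0494) and 0.43 (adjusted p = 0.197).

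Of the 7 measured members of the C subfamily outside the canaliculus (Abcc1, Abcc3, Abcc4, Abcc5, Abcc6, Abcc9 and Abcc10), 5 fell, 0 rose and 2 did not pass in anti-Ly6G against control, with 15.3% of all genes lower. The median log2 difference was -0.51 (0.00 over all genes). Of the 5 calls, those of Abcc3 and Abcc4 held with the mitochondria label as a covariate, and those of Abcc1, Abcc5 and Abcc10 were lost. In KO against control 0 passed (median -0.09), with 0.585% of all genes higher and 0.534% lower. In KO against anti-Ly6G 4 were higher in KO, with 13.6% of all genes higher. Of these 4 calls, those of Abcc1 and Abcc3 held under every alternative and those of Abcc4 and Abcc5 did not. Abcc3 (MRP3), the basolateral exporter of glucuronides and bile acids, had 290, 217, 216 and 254 RPM in control, 231, 236, 240 and 207 in KO and 116, 149, 128 and 154 in anti-Ly6G pools. No antibody pool reached any other pool. Against its log2 difference of -0.83 ± 0.11 (SE, limma, adjusted p = 0.000161) in all pools, the value with the label as a covariate was -0.77 (adjusted p = 0.0310), and KO 3 and 4 exceeded anti-Ly6G by 0.71 (limma, adjusted p = 0.00819).

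Abcc4 (MRP4), which exports bile acids together with glutathione, and cyclic nucleotides, was some way below Abcc3. It had 5.92, 7.11, 5.82 and 7.27 RPM in control, 5.16, 4.27, 6.41 and 5.26 in KO and 3.92, 3.29, 4.44 and 2.59 in anti-Ly6G pools. The antibody pools lay below all control pools, and KO pools overlapped both groups. The difference was -0.81 ± 0.16 (SE, limma, adjusted p = 0.00218) in anti-Ly6G against control, -1.09 with the covariate (adjusted p = 0.0276) and -0.29 in KO against control (adjusted p = 0.335). Abcc1 (MRP1), known as the exporter of leukotriene C4 and glutathione conjugates in many cell types, had 6.11, 6.71, 6.59 and 10.0 RPM in control, 8.58, 8.86, 8.90 and 9.95 in KO and 5.25, 4.36, 5.39 and 3.31 in anti-Ly6G pools. Every antibody pool was below every other pool, and control pool 4 was the highest of the 12. The difference was -0.63 ± 0.16 (SE, limma, adjusted p = 0.0105) in anti-Ly6G against control, 0.31 in KO against control (adjusted p = 0.322) and 0.93 in KO against anti-Ly6G (adjusted p = 0.00120). With the covariate the antibody difference was -0.73 and did not pass (adjusted p = 0.128).

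Abcc5 (MRP5), an exporter of cyclic nucleotides, had 9.58, 12.9, 10.3 and 16.1 RPM in control, 13.5, 12.7, 13.6 and 14.4 in KO and 10.9, 6.54, 9.82 and 6.63 in anti-Ly6G pools. Control and antibody pools overlapped, while all KO pools were above all antibody pools. It fell by 0.51 on the log2 scale in anti-Ly6G against control (limma, adjusted p = 0.0425). This call held in 11 of 19 alternatives, and was lost without control 2 or 4 or antibody pool 2 or 4. Over all left-out pools, those that kept the call included, the difference was -0.64 to -0.37. Abcc10 fell from 12.8 ± 1.40 to 9.53 ± 0.343 RPM (-0.40, limma, adjusted p = 0.0443). Its call held in 9 of 19 alternatives and was lost when any one of 7 pools was left out. The 2 that did not pass were Abcc6, a hepatocyte protein whose loss lets soft tissue mineralise (means of 89.9 and 110 RPM, 0.30, 95% interval 0.05 to 0.55, limma, adjusted p = 0.0684), and Abcc9, a subunit of potassium channels (36.1 ± 3.44 to 29.5 ± 6.99 RPM, -0.31, limma, adjusted p = 0.232). With the covariate Abcc9 passed at -0.99 (limma, adjusted p = 0.0316).

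The 11 members of the A subfamily with Abcg1 and Abcg3, most of which handle cholesterol or phospholipids, split in anti-Ly6G against control. Of them 3 rose (Abca3, Abca8b, Abcg3), 4 fell (Abca1, Abca2, Abca7, Abcg1) and 4 did not pass, beside 15.1% of all genes higher and 15.3% lower. Their median log2 difference was 0.28, with 0.00 over all genes. None passed in KO against control (median -0.04). Abcg1, which loads cholesterol onto high-density lipoprotein and is strong in macrophages, had 12.4, 10.7, 10.0 and 12.4 RPM in control, 10.6, 9.65, 10.9 and 12.8 in KO and 8.66, 5.78, 10.3 and 6.39 in anti-Ly6G pools. Antibody pool 3 lay within the control range and the other 3 below it. The difference was -0.55 ± 0.16 (SE, limma, adjusted p = 0.0173), lost without antibody pool 2 (-0.43, adjusted p = 0.0544), and -0.77 with the covariate (adjusted p = 0.0942). Abca1, which starts high-density lipoprotein by passing lipid to apolipoprotein A1, was at 123 to 158 RPM in control and 95.6 to 146 in anti-Ly6G pools (-0.32, limma, adjusted p = 0.0473). Its call held in 10 of 19 alternatives, and was lost when any one of 6 pools was left out and by edgeR on the recovered reads.

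Abca2 and Abca7 fell without overlap in anti-Ly6G against control and kept that call under every alternative. Abca2, a lipid transporter of lysosomes, went from 20.4 ± 1.40 to 14.8 ± 1.46 RPM (-0.45, limma, adjusted p = 0.00258), and Abca7, a phospholipid transporter close to Abca1, from 9.31 ± 0.841 to 6.81 ± 0.684 RPM (-0.42, limma, adjusted p = 0.0136). Both were near control in KO, at 19.9 ± 1.81 and 9.10 ± 1.32 RPM, with 95% intervals of -0.23 to 0.16 and -0.28 to 0.21 for the log2 difference. Abcg3, a rodent relative of Abcg2, had 2.08, 2.51, 2.55 and 3.57 RPM in control, 3.78, 3.53, 4.33 and 4.83 in KO and 6.76, 3.40, 4.29 and 3.23 in anti-Ly6G pools. Antibody pool 1 was the highest of the 12 and pools 2 and 4 reached into the control range. It differed by 0.60 ± 0.20 (SE, limma, adjusted p = 0.0403) in anti-Ly6G against control and by 0.55 in KO against control (adjusted p = 0.175). The antibody call held in 10 of 19 alternatives. It was lost when any one of 5 pools was left out, antibody pool 1 (0.39) among them.

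Abca5, Abca6, Abca8a, Abca8b and Abca9 lie side by side on chromosome 11. Only Abca8b passed in anti-Ly6G against control, and a shared shift was not tested. Abca8b rose from 41.5 ± 7.02 to 52.1 ± 6.22 RPM in anti-Ly6G (0.33, limma, adjusted p = 0.0361) and stood at 47.5 to 51.3 RPM in KO. The antibody call held in 10 of 19 alternatives and was lost when any one of 6 pools was left out. Abca5 (0.32), Abca8a (0.28) and Abca9 (0.45) did not pass in the antibody group, nor did Abca6 (-0.25, 198 ± 11.1 to 168 ± 32.2 RPM), at limma adjusted p of 0.0789, 0.172, 0.140 and 0.135. Abca8a and Abca8b are 73.8% identical in coding sequence.

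In the D subfamily, the peroxisomal Abcd2 and Abcd3 and the lysosomal cobalamin transporter Abcd4 did not pass in any comparison. Abcd3 stood at 687 ± 58.7, 642 ± 63.7 and 763 ± 48.6 RPM in control, KO and anti-Ly6G (0.15, limma, adjusted p = 0.217 for the antibody).

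Among members of the mitochondria, Abcb10, needed for haem synthesis in red cell precursors, rose from 10.5 ± 1.11 to 13.2 ± 1.19 RPM (0.33, limma, adjusted p = 0.0194, lost without control 2 or antibody pool 2) and was at 12.7 ± 0.760 RPM in KO (0.27, limma, adjusted p = 0.155), above every control pool. Abcb6, a porphyrin transporter of which 47.2% of 25-mers are unique because Gm29253 overlaps it, and Abcb8 did not pass (0.22 and -0.23, limma, adjusted p = 0.0627 and 0.0998). The mitochondria label is part of each antibody comparison with control, and with it as a covariate Abcb10 (0.46) did not pass (limma, adjusted p = 0.0992).

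Among the 4 ATPases of translation, Abcf3 rose from 33.1 ± 3.05 to 42.1 ± 2.32 RPM in anti-Ly6G (0.34, limma, adjusted p = 0.00468), 0 fell and 3 did not pass (median 0.12, with 15.1% of all genes higher and 15.3% lower). With the label as a covariate Abcf3 differed by 0.25 and did not pass (limma, adjusted p = 0.246). Abce1, which recycles ribosomes, differed by 0.24 (limma, adjusted p = 0.0776), Abcf1 by -0.19 (adjusted p = 0.109) and Abcf2 by -0.01 (95% interval -0.19 to 0.17, adjusted p = 0.935). Abcb9, a lysosomal peptide transporter, was at 3.12 ± 0.539, 3.16 ± 0.460 and 3.33 ± 0.444 RPM in control, KO and anti-Ly6G.

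Fewer antibody calls passed with the mitochondria label as a covariate. Control pools were all C57 and anti-Ly6G pools all NZB, so its effect came only from KO pools 1 and 2 against 3 and 4. With this covariate, 2 members were higher, Abca3 among them, and 6 lower (Abca2, Abca7, Abcc2, Abcc3, Abcc4 and Abcc9) in anti-Ly6G against control, against 4.38% and 3.87% of all genes. Calls lost with the covariate included those of Abca1, Abca8b, Abcb1a, Abcb10, Abcc1, Abcc5, Abcc10, Abcf3, Abcg1, Abcg2 and Abcg3. A lost call need not mean a smaller difference. Some differences were larger with the covariate, such as those of Abcc1 (-0.73 against -0.63) and Abcc10 (-0.71 against -0.40). Others were smaller, such as those of Abcb1a (0.19 against 0.55) and Abcg2 (0.40 against 0.54). KO pools 3 and 4 against anti-Ly6G, all NZB, gave 6 members higher in KO (Abca2, Abca7, Abcc1, Abcc2, Abcc3 and Abcc4) and 4 lower (Abca3, Abcb1a, Abcg2 and Abcg8), against 9.07% and 8.24% of all genes. The control pools, labelled C57, stayed in that fit and in its estimate of the spread. Over all alternatives, left-out pools included, 7 of the 19 antibody calls against control held throughout, among them Abca2, Abca3, Abca7, Abcc2, Abcc3 and Abcc4.

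**Figure D4:**
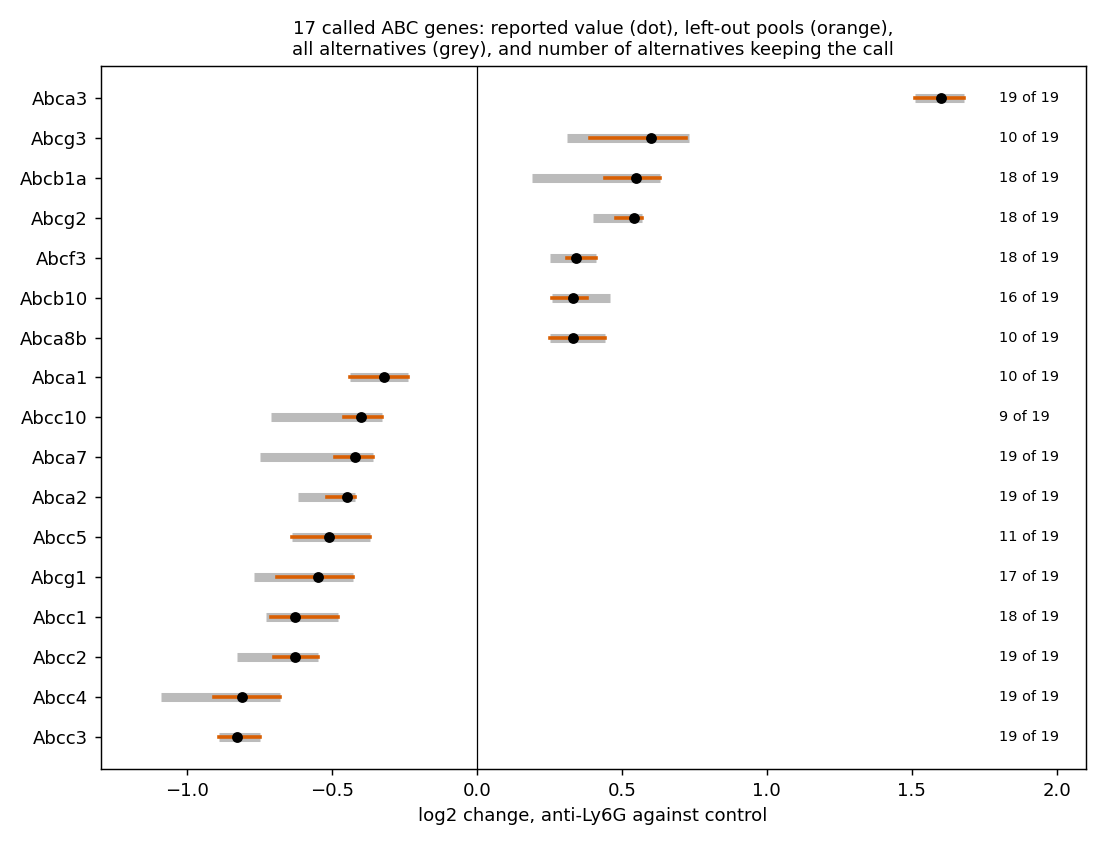
Log2 difference in anti-Ly6G against control of 17 members called there (dots), with its range over left-out pools (orange) and over all alternatives (grey), and the number of alternatives that kept the call. Abca3 stays between 1.51 and 1.68 and Abcc3 between -0.89 and -0.75, while Abcb1a goes from 0.55 to 0.19 once the mitochondria label is a covariate.

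Carriers and regulators around the transporters were read from lists of textbook genes. In anti-Ly6G against control, 15.1% of all genes were higher and 15.3% lower. Tap1 and Tap2, ABC proteins of antigen presentation outside the symbol rule, both fell in the antibody group (-0.77 and -0.39, limma, adjusted p = 0.000755 and 0.0194). Of 8 bile acid and phospholipid carriers that are not ABC proteins, 4 rose and 1 fell (median 0.41), among them the canalicular flippase Atp8b1 (0.70, limma, adjusted p = 0.000569). In KO against control 1 of the 8 passed, Slc10a1, the bile acid uptake carrier, at -0.49 (limma, adjusted p = 0.0323), with 0.534% of all genes lower.

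The next 4 lists are also to be read beside 15.1% of all genes higher and 15.3% lower in anti-Ly6G against control. Of 12 targets of the liver X receptors, a list that holds Abca1, Abcg1, Abcg5 and Abcg8, 1 rose and 6 fell in anti-Ly6G (median -0.26). The lowest p were those of Nr1h3, the receptor gene itself (0.50, limma, adjusted p = 5.89e-05), and lipoprotein lipase Lpl (-1.60, limma, adjusted p = 0.000266). Of 12 targets of NRF2, the factor of the antioxidant response, 1 rose (Ugdh, 1.11, limma, adjusted p = 0.000104) and 4 fell, among them Gstm1 (-0.89, limma, adjusted p = 0.000277), with a median of 0.03. Of 9 targets of the xenobiotic receptors CAR and PXR, 1 rose and 2 fell (median -0.02), near the shares of all genes. Cyp2b10 rose by 3.27 (limma, adjusted p = 1.16e-05), from a low 0.898 ± 0.339 RPM in control to 13.7 ± 5.54 in anti-Ly6G. Ugt1a1 fell by 0.51 (limma, adjusted p = 0.00225). Of 13 nuclear receptors and other regulators of transporters, 4 rose and 2 fell (median 0.10), with Ahr at 0.68 (limma, adjusted p = 0.00157). In KO against control none of these last 4 lists had a gene past the test, with medians of -0.11, 0.13, -0.18 and -0.14.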

How the data were processed

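Liver RNA of 12 pools was read on an Illumina Genome Analyzer IIx, and the authors' deposited values are a normalized signal for each gene. The submitters' processing notes name GRCm38, edgeR, RSEM 1.2.3, Bowtie2 2.0.6 and cutadapt 1.2.1. Their roles, the annotation and the rule for including genes were not given in the sources used. Every value was a whole multiple of 1 read within 0.01 (100% of values in all 12 columns, with 4 passing a stricter test of low values), and the scaling matched TMM (ratio 1.000 in all columns). Depth recovered in this way was 14.4 to 19.9 M reads (control), 18.8 to 22.3 M (KO) and 13.1 to 21.0 M (anti-Ly6G). Floors of 3 reads cover counting error only.

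Tests were limma-trend fits (limma 3.58.1, R 4.3.3) on log2(signal + 0.5) over all 11791 genes and 12 libraries, group only, two-sided, with Benjamini-Hochberg adjustment at 0.05. Fold changes on this scale understate the change of low genes. The plan named edgeR for counts and limma for normalized values, and the signal made limma the reported test. A filter asking for a mean of 1 in a group removed no gene. Alternatives were edgeR 4.0.16 and DESeq2 1.42.0 on the recovered reads, pseudocounts of 0.1 and 1, other scalings and filters, 2 groups alone, the replicate number as a block, the mitochondria label as a covariate or held constant, and each pool left out. To hold the label constant, only the KO pools of the other label were dropped. The group outside the comparison stayed in the fit and in its estimate of the spread. Only the limma fit for anti-Ly6G against control, without KO pools, was tried on simulated counts, with the same spread setting for every gene. The fit of all 3 groups, edgeR, DESeq2 and the other alternatives were not tried in this way. Symbols, coordinates, exon lengths and 25-mers came from GENCODE vM21, which holds 11665 of the IDs, and promoters from RefSeq (GRCm38.p6).

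The members and gene lists were chosen with earlier results of these data known. Pool values were given for called members (at most the 12 with the largest change) and for 6 canalicular exporters whatever their p. Of each other list, the 2 genes of lowest p in each comparison with control could be named. Results of 2 members and of 1 listed gene are not reported here. Pools of a group differed by more than counting noise (chi-square per gene 9.61 to 63). Where pools hold separate animals, p-values measure the spread between pools of 2.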

Additional observations from a re-analysis of the deposited data

Results flagged for a closer look

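In 5 of the 117 sets of 4 pools tested (39 members in 3 groups), 1 pool stood apart from the other 3 by Dixon's test, and chance flags about 1 in 20. Abcc1 was at 10.0 RPM in control pool 4, with the others at 6.11 to 6.71. Abcc10 was at 7.54 RPM in KO pool 2, with the others at 11.8 to 12.4. Abca2 was at 17.0 RPM in anti-Ly6G pool 3, with the others at 13.8 to 14.3. Abcc6 was at 119 RPM in control pool 1, with the others at 82.0 or less, and at 127 RPM in anti-Ly6G pool 4, with the others at 102 to 105.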

How the results depend on the processing

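Of 1116 values of 57 single-member results under the alternatives, 998 kept direction and side of the threshold, 93 lost the call, 1 gained it and 24 turned sign. Of 33 calls, 14 held under every alternative: 7 of anti-Ly6G against control, 7 of KO against anti-Ly6G and 0 of KO against control.

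Members higher in KO against control numbered 1, 0 with 2 groups only, 0 with the replicate block and 0 to 1 with a pool left out. In anti-Ly6G against control the 9 higher became 2 and the 10 lower became 6 with the mitochondria covariate, and left-out pools gave 6 to 10 and 6 to 9. The cause was not tested.

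Only uncalled differences turned sign. In KO against control, Abcb4 (0.08) became -0.01 with the covariate and within 1 label, Abca3 0.02 and Abcg1 0.01 with library totals, and left-out pools gave -0.11 to 0.00 for Abca3 and -0.12 to 0.01 for Abcg1. In anti-Ly6G against control, the covariate turned Abcg5 to 0.30, Abcb1b to 0.15 and Abcb4 to -0.07, and left-out pools gave Abcg5 -0.29 to 0.01. In KO against anti-Ly6G, Abcg3 became 0.05 with library totals and 0.10 with the covariate and within 1 label, Abcb11 0.09 with library totals and 0.03 with quantiles, and Abcb4 0.07, 0.01 with quantiles, and 0.05 with the covariate and within 1 label. Left-out pools gave Abcg3 -0.16 to 0.16, Abcb11 -0.07 to 0.02 and Abcb4 -0.10 to 0.00.

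Over all genes, KO against control had 69 higher and 63 lower, with DESeq2 268 and 309, replicate block 10 and 10, covariate 25 and 54, same label 13 and 45, library totals 123 and 37, quantiles 106 and 102, and left-out pools 2 to 177 and 1 to 142. Anti-Ly6G against control had 1775 and 1805, with the covariate 517 and 456 and library totals 1267 and 1977. KO against anti-Ly6G had 1608 and 1549, with library totals 2333 and 701 and within the NZB label 1070 and 971.

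Replicate numbers did not pair the pools: deviations of same-numbered pools correlated at -0.209 to 0.172, and in 8 of 24 cases a pool correlated best with its own number. With the replicate block 8 members were higher and 8 lower in anti-Ly6G against control, and 9 and 5 in KO against anti-Ly6G.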
